A study of Drosophila melanogaster with 6 samples.

Results

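The nuclear tRNAs for asparagine, isoleucine, threonine, phenylalanine, tyrosine and tryptophan gave few fragments in small RNA libraries of adult male Drosophila melanogaster. They comprise 9 of the 44 listed isoacceptors, an isoacceptor being the tRNAs of 1 amino acid with 1 anticodon: Asn-GTT, Ile-AAT, Ile-TAT, Thr-AGT, Thr-CGT, Thr-TGT, Phe-GAA, Tyr-GTA and Trp-CCA. All genes whose names carry these 6 amino acids were taken, 67 of 297 listed genes, with 240 of 3100 distinct sequences and 1629 of 199972 reads. The amino acids were chosen by their low reads per gene copy in these libraries, so that low yield is given below as a description, with no test. No sequence was shared between these tRNAs and any other.

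The libraries came from whole bodies without testis of flies labelled w1118; Dnmt2 mutant/Dnmt2 mutant;+/+ (mutants) and w1118; +/Dnmt2 mutant;+/+ (heterozygotes). Every heterozygote, the comparison genotype, thus also carried 1 mutant allele on the w1118 background. In each genotype, flies were untreated at 10 days of age (control), exposed at 10 days to 37 °C for 1 h followed by 5 h at room temperature (heat shock), or sampled at 12 days after 2 days of recovery from the same heat. Recovery flies were 2 days older than the rest, and age and recovery cannot be told apart. Each of the 6 groups was 1 library, the series title calls the comparison flies wild type where the sample labels say heterozygous, and the lists hold tRNA sequences only, so the Dnmt2 transcript and the tissue label were not checked here.

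With each read counted once, the lists of mutant control, heat shock and recovery summed to 67477, 37463 and 5113 tRNA reads, and those of heterozygotes to 15337, 46060 and 28522. These totals are the listed tRNA reads and not the sequencing depth. The shortest read in the lists was 30 nt and the longest 51 nt, so fragments under 30 nt are not described here. In whole bodies, fewer cells of a type and less RNA per cell cannot be told apart. The mutant libraries also carried a base error, A read as C, that was rare in the heterozygote libraries. It was measured in reads of 51 nt, of which only 5 were among the 1629 reads described here. Of such reads with an A at read position 7, 15.5% in mutants and 0.126% in heterozygotes had it read as C. The rates were 13.7% and 0.0607% at read position 24, and 4.80% and 0.214% at read position 37. Reads of up to 35 nt are listed only where they match a gene exactly, so short mutant reads with such an error are missing from the lists.

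A tRNA folds into an acceptor stem, which joins its first and last bases, and 3 hairpins: the D arm, the anticodon arm and the T arm. Endonucleases that cut the anticodon loop leave a 5′ fragment, from the first base to the loop, and a 3′ fragment, from the loop to the last base. Dnmt2 methylates a cytosine in the anticodon loop of Asp-GTC, Gly-GCC and Val-AAC in flies, none of which belongs to the 9 isoacceptors. Many other modified bases sit in the same loop, and a modified base can stop or mislead the reverse transcriptase that copies the RNA into a library.

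The sequences below are examples of 3′ reads that ran to base 73, from isoacceptors with fewer reads, and these began in or just after the anticodon loop. They are taken from the deposited lists, and the name, first base and summed reads of each precede it. Capitals mark bases 53 to 58, the start of the T-loop, by which the reads were placed.
Tyr-GTA from base 42, 46 reads: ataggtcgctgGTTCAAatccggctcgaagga
Tyr-GTA from base 41, 20 reads: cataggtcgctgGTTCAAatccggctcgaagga
Ile-TAT from base 42, 12 reads: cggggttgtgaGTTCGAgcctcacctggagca
Ile-TAT from base 38, 12 reads: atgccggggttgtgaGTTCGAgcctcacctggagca
Thr-CGT from base 36, 2 reads: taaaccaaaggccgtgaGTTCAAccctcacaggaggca
The other end of the molecule was sampled far less often. The leading 5′ reads of Tyr-GTA stopped just before the anticodon, or at its first base, with bases 31 to 33 in capitals.
Tyr-GTA bases 1 to 33, 12 reads: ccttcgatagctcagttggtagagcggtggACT
Tyr-GTA bases 1 to 34, 4 reads: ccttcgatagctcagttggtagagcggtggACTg

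The 9 isoacceptors together took less than their share of genes would give, 0.859% of reads on average over the 6 libraries, with 22.6% of the listed genes. Trp-CCA had 494 reads in all, Asn-GTT 356, Thr-AGT 297 and Ile-AAT 271, and these 4 made up 87.0% of the 1629. Tyr-GTA had 127 reads, Phe-GAA 30, Ile-TAT 25, Thr-TGT 19 and Thr-CGT 10. Isoleucine and threonine each have several anticodons, and most of their reads came from Ile-AAT and Thr-AGT, both of which carry inosine at the first anticodon base. Ile-TAT was listed with 0 reads in mutant recovery, where a count of 0 allows a share of up to 0.0587%. The other isoacceptors had at least 1 read in every library.

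Divided by the number of genes listed, the yield of these tRNAs was low but not the lowest. Trp-CCA gave 2.93 reads per gene copy per 10000 listed reads (mean of 6 libraries), and libraries ranged over 1.22 to 5.26. Thr-AGT followed at 1.85 (0.682 to 3.66), Ile-AAT at 1.57 (0.454 to 3.05) and Asn-GTT at 1.49 (0.534 to 2.31). The ranges of these 4 overlap, and they stood 17th, 20th, 21st and 22nd among 40 isoacceptors or pairs that share reads. Tyr-GTA, at 0.780 (0.428 to 1.44), was 28th and Ile-TAT, at 0.610 (0 to 1.93), 30th. Phe-GAA (0.271), Thr-CGT (0.247) and Thr-TGT (0.195) were 35th, 38th and 39th. Each of these 3 ranges over libraries overlapped the others, so their order is not resolved. The yield of Trp-CCA depended on the counting: with each distinct sequence counted once it was 5.00, 16th of 41.

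The other 31 units ran between 0.0247 and 357.5 reads per copy, with a median of 3.46. Of these, 15 lay below Trp-CCA, and 1, Arg-TCT with a single read, lay below Thr-TGT. The next above Trp-CCA was the pair Ser-AGA and Ser-CGA at 3.46, and the next below was Arg-ACG at 2.16, with Ala-AGC at 2.06 between it and Thr-AGT. Ser-TGA, at 1.47, stood next to Asn-GTT, and Arg-TCG (0.782) and Leu-CAA (0.776) stood on either side of Tyr-GTA. A low yield was therefore shared with tRNAs for serine, leucine, arginine, alanine and valine.

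**Figure D1:**
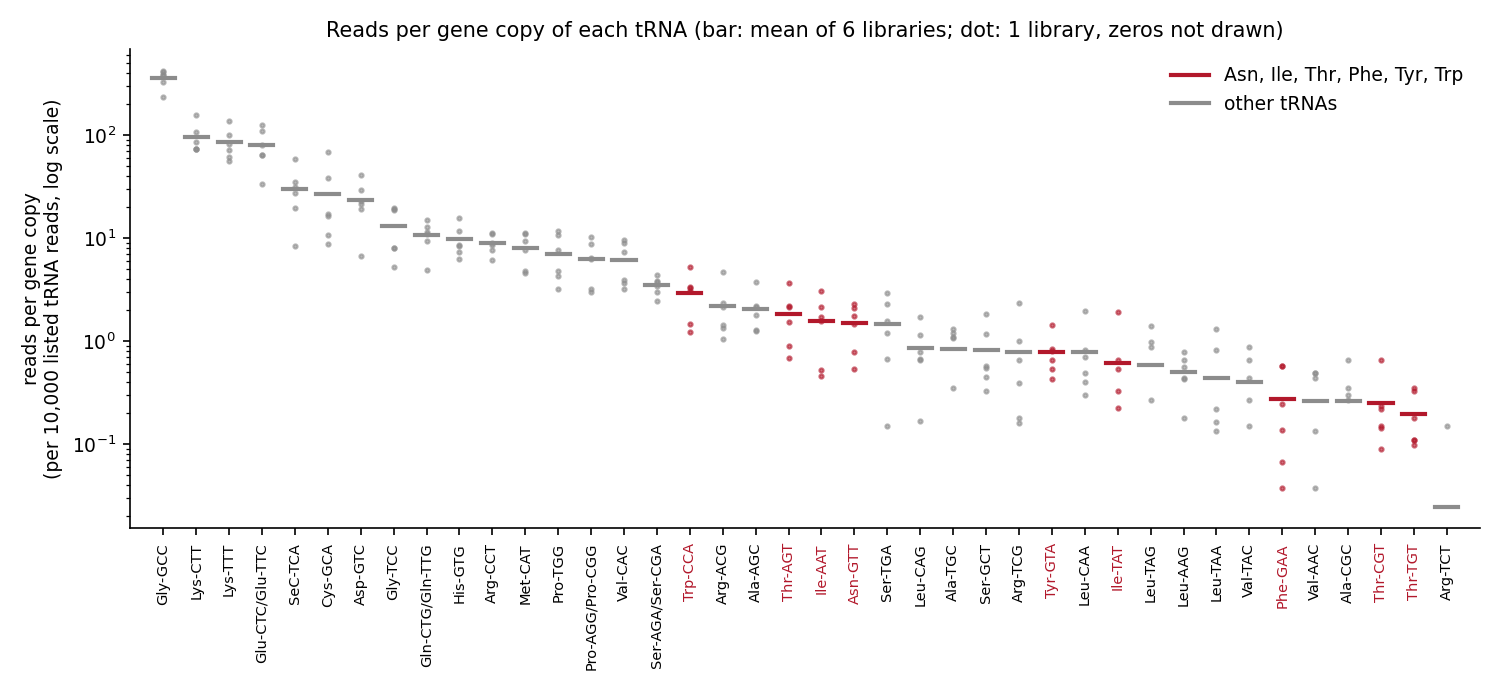
Reads per gene copy per 10,000 listed tRNA reads (log axis) for the 40 isoacceptors or pairs that share reads, ordered by the mean of 6 libraries (bar), with each library as a dot. The asparagine, isoleucine, threonine, phenylalanine, tyrosine and tryptophan tRNAs (red) stand between 17th and 39th, at 2.93 to 0.195.

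The reads of these tRNAs came from the 3′ side. With a read counted as reaching an end when it stopped within 2 bases of it, 1452 of 1627 placed reads were 3′ fragments (89.2%, 95% Wilson interval 87.6 to 90.7), 105 were 5′ fragments (6.45%) and 70 were internal (4.30%). In the other tRNAs 7.16% of reads were 3′ fragments, 91.2% were 5′ fragments and 1.64% were internal. The 3′ share was high in each library: 92.2%, 86.4% and 88.6% in the mutants (control, heat shock, recovery) and 84.7%, 93.3% and 85.2% in the heterozygote libraries. For the other tRNAs it lay between 4.83% and 10.0% in the 6 libraries. Since a tRNA with many 5′ fragments has a high yield and could not have been chosen, this contrast partly follows from the choice and is given with no test.

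By isoacceptor, the 3′ share was 99.0% for Thr-AGT, 92.1% for Asn-GTT, 91.5% for Trp-CCA, 78.6% for Ile-AAT and 53.3% for Phe-GAA. All 24 placed reads of Ile-TAT were 3′ fragments, as were 17 of 19 for Thr-TGT, 8 of 10 for Thr-CGT and 100 of 126 for Tyr-GTA. Only Phe-GAA had about as many 5′ reads (14) as 3′ reads (16).

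**Figure D2:**
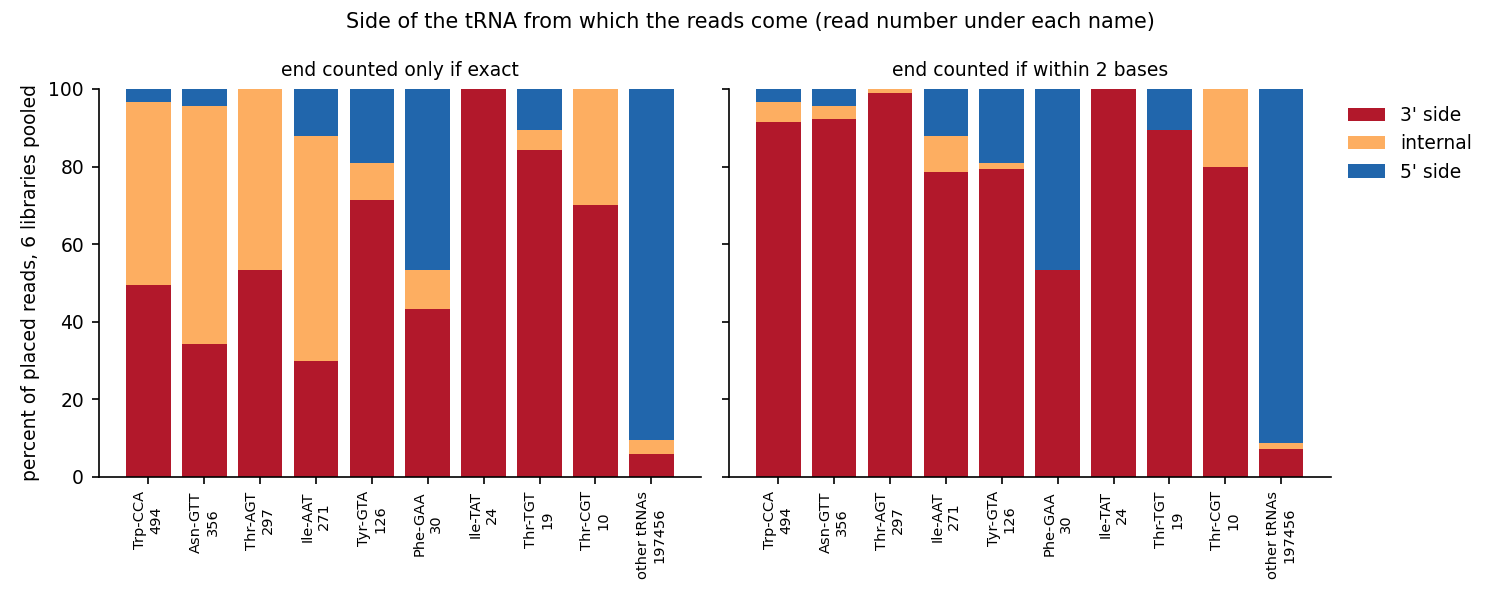
Percent of placed reads, with the 6 libraries pooled, that were 3′ side, internal or 5′ side reads, with an end counted only if exact (left) or if within 2 bases (right), for each isoacceptor and for all other tRNAs. The internal band of Asn-GTT, 61.2% at left, shrinks to 3.37% at right, while the other tRNAs are mostly 5′ reads in both panels.

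Counted by side, these tRNAs stood low in 5′ fragments and not in 3′ fragments. The low 5′ standing partly follows from their choice by low total yield, so both sides are given with no test. The median 3′ yield of the 9 isoacceptors was 0.615 reads per copy per 10000, against 0.422 for the other tRNAs, whereas the median 5′ yield was 0.0818 against 0.244. Ranked by 3′ reads alone, 6 of the 9 stood among the first 20 of 40 units; ranked by 5′ reads, 1 did. Each of the 9 had more 3′ than 5′ reads per copy, as did 13 of the other 31. Among the 15 other tRNAs below Trp-CCA in total yield, 10 also had more 3′ than 5′ reads. Among the 16 above it, 13 had more 5′ than 3′ reads, up to 330.3 per copy in Gly-GCC, which itself gave 26.1 3′ reads per copy.

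**Figure D3:**
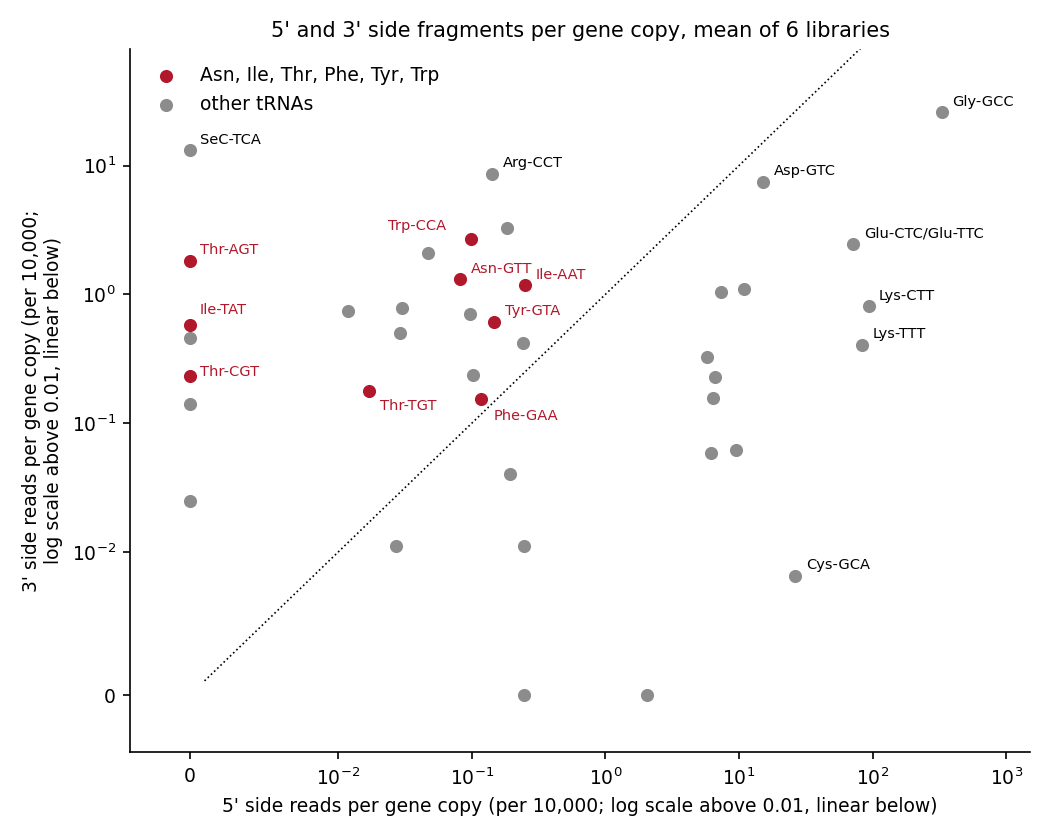
Reads per gene copy from the 5′ side (x) and the 3′ side (y), each per 10,000 listed reads, mean of 6 libraries, on axes that are logarithmic above 0.01 and linear below; the dotted line marks equal values. All 9 isoacceptors (red) lie above the line, and the tRNAs of highest yield lie far to the right of it.

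Asn-GTT reads looked internal when an end had to be exact: 218 of 356 reads (61.2%) then touched neither end. The exact internal share was 64.5%, 62.5% and 77.8% in the mutants (control, heat shock, recovery) and 43.8%, 74.4% and 51.9% in the heterozygote libraries. The genotypes overlapped, with a mean of 68.3% in mutants and 56.7% in heterozygotes, a difference of 11.6 percentage points (SD of the 3 paired differences 20.5, higher in 2 of 3 pairs, exact paired sign-flip permutation p = 0.5, 2-sided, smallest possible 0.25). With 2 bases of tolerance the internal share fell to 12 of 356 reads, 3.37%. It was then 2.37%, 4.17% and 22.2% in the mutants, the last on 2 of 9 reads, and 3.13%, 2.33% and 3.80% in the heterozygotes. Most internal Asn-GTT reads were thus 3′ fragments that stopped 1 or 2 bases short of base 73, the last base encoded in the gene.

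Where 3′ reads stopped differed between isoacceptors. Of 328 Asn-GTT 3′ reads, 122 ended at base 73, 141 at base 72 and 65 at base 71. Ile-AAT skipped base 72: 81 ended at base 73, 2 at base 72 and 130 at base 71. Thr-AGT did likewise, with 158, 3 and 133 reads. Trp-CCA had 244, 92 and 116, and Tyr-GTA ended at base 73 in 90 of 100 reads. All 24 Ile-TAT reads ended at base 73. Over the 9 isoacceptors 52.0% of 3′ reads ended at base 73, 16.9% at base 72 and 31.1% at base 71, against 80.9%, 5.65% and 13.4% in the other tRNAs. Mature tRNAs carry a CCA tail that the genes lack, and the lists hold only the part of a read that a gene matches. Whether a read had a CCA tail, or had been shortened where it stopped matching, was not tested.

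The first bases of the 3′ reads also differed. Trp-CCA reads mostly began right after the anticodon, 328 of 452 at bases 37 to 41, most often at base 39, followed by base 38 (109) and base 37 (100). Another 92 began at bases 27 to 33, before the anticodon. Thr-AGT began at base 35, inside the anticodon, in 105 of 294 reads, and at bases 37 to 41 in 179. None of its reads began at bases 27 to 33. Ile-AAT split 3 ways, with 74 reads from base 28, 62 from bases 34 to 36 and 77 from bases 37 to 41. Thr-AGT and Ile-AAT carry inosine at base 34, and the lists appear to shorten a read where a gene stops matching. Whether reads listed from base 35 had begun there or had been shortened was not tested. Tyr-GTA reads with a placed start began later than these, at bases 42 to 46 in 65 of 89 reads, of which 49 at base 42. The other 11 of its 100 3′ reads had 2 more bases before base 38 and are left out of this count. Its genes hold an intron before base 38, so spliced reads with earlier starts could not be listed in full.

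Asn-GTT had 2 separate sets of starts: 155 of 328 reads began at bases 27 to 33 and 145 at bases 37 to 41. The start at base 29 came from the mutant control library above all, with 62, 1 and 1 reads in the mutants (control, heat shock, recovery) and 4, 0 and 12 in the heterozygote libraries. The start at base 30, 1 base further, had 11, 4 and 2 reads in the mutants and 1, 17 and 23 in the heterozygotes. Base 29 thus exceeded base 30 in both control libraries, and base 30 exceeded base 29 after heat shock and in recovery in both genotypes, on 5 reads or fewer in heterozygote control, mutant heat shock and mutant recovery.

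The share of 3′ reads listed as beginning inside the anticodon varied with the library for Thr-AGT. It was 13.0% (7 of 54 reads), 26.1% (6 of 23) and 14.3% (1 of 7) in the mutants (control, heat shock, recovery) and 36.7% (11 of 30), 36.4% (32 of 88) and 63.0% (58 of 92) in the heterozygotes. The heterozygote value was the higher in each condition. The 95% Wilson intervals overlapped in control and heat shock and not in recovery, at 2.57 to 51.3% in mutants and 52.8 to 72.2% in heterozygotes. With 3 pairs the smallest exact p is 0.25, and no test was run on this value. Most of the reads counted in this share were listed from base 35, right after the inosine. These were 7, 4 and 1 reads in the mutants and 9, 27 and 57 in the heterozygotes. Whether they had begun at base 35 or were longer reads listed shortened was not tested, in either genotype.

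**Figure D4:**
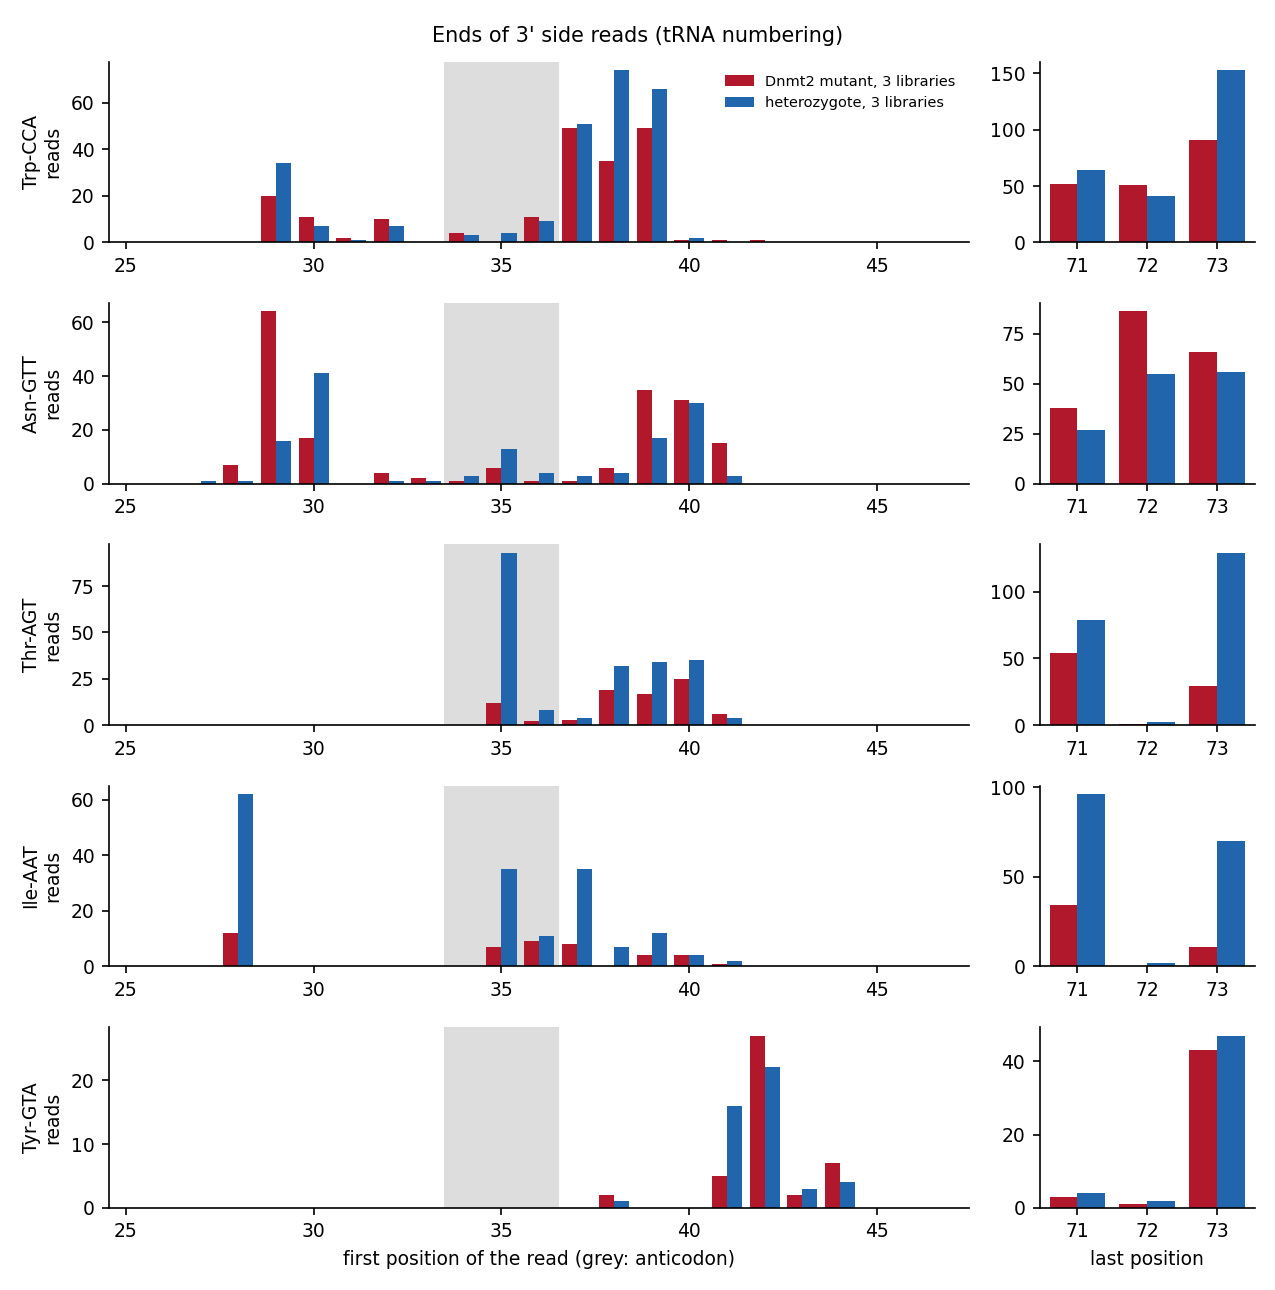
First position (left) and last position (right) of the 3′ side reads of the 5 most abundant isoacceptors, in reads summed over the 3 mutant (red) and the 3 heterozygote (blue) libraries; the anticodon, bases 34 to 36, is grey. Tyr-GTA reads with a placed start begin mostly at bases 41 and 42. Thr-AGT reads are listed as beginning at base 35 and after the anticodon, and Asn-GTT reads at bases 29 and 30 and near base 40.

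The 105 reads from the 5′ side mostly stopped at the anticodon: 85 ended at bases 33 to 36, of which 59 at base 33 and 12 at base 34. Ile-AAT gave 27 of the reads that ended at base 33, Tyr-GTA 12, Phe-GAA 11 and Trp-CCA 9. Ile-AAT carries inosine at base 34. Its short reads that did not match the gene there may be missing, or listed shortened to base 33. Neither was tested. The leading Phe-GAA sequence was such a fragment, in 0, 0 and 0 mutant reads and 4, 2 and 5 heterozygote reads of control, heat shock and recovery. Asn-GTT had 16 5′ reads and none of them ended at base 33 or 34. Thr-AGT, Thr-CGT and Ile-TAT had no 5′ read, which for Thr-AGT allows a share of up to 1.28% (upper bound of the 95% Wilson interval, 297 reads).

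Reads of these tRNAs were long. Of 1629 reads, 52.9% were 36 to 50 nt and 46.8% were 35 nt or shorter, against 11.1% and 85.1% for the other tRNAs. At 51 nt, the longest read length in the lists, stood 0.307% of the reads, against 3.79% of the other tRNAs. These tRNAs gave mostly 3′ reads and the others mostly 5′ reads, and lengths were not compared within the same side. Reads over 35 nt may carry mismatches in the lists, so their bases can be read for changes at modified positions.

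In Ile-AAT, the first anticodon base was read as G in place of the A of the gene, A34G, in 94 of 101 reads over 35 nt (93.1%, 95% Wilson interval 86.4 to 96.6). Adenosine at that position is deaminated to inosine, which is copied as G. The change was present in 13 of 15 reads of mutant control and 2 of 2 of mutant recovery, with no such read in mutant heat shock. In the heterozygotes it was present in 12 of 13 reads of control, 20 of 21 of heat shock and 47 of 50 of recovery. The genotypes did not separate at this depth. In the other tRNAs of the same kind that had such reads the change was seen in 48 of 48 Pro-AGG reads, 8 of 13 Arg-ACG reads, 6 of 10 Ser-AGA reads, 0 of 5 Ala-AGC reads and the 1 Val-AAC read.

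Base 26, at the foot of the anticodon stem, is a guanosine that many tRNAs carry in dimethylated form. In Asn-GTT it was changed in 12 of 18 reads, and 11 of these were G26T. It was changed in 1 of 3 Phe-GAA reads and in 0 of 8 reads each of Ile-AAT and Tyr-GTA, while among the other tRNAs that have G there it was changed in 2 of 3835 Gly-GCC reads and in 5 of 8 Ser-AGA reads (3 G26C and 2 G26T). The remaining ones had at most 42 reads each over that base and showed no change. The Asn-GTT reads were few: G26T was seen in 2 of 3 reads of mutant control and 3 of 3 of mutant heat shock, with none over that base in mutant recovery. In the heterozygotes it was seen in 1 of 4 reads of control, 1 of 2 of heat shock and 4 of 6 of recovery. Both genotypes thus showed the change.

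Base 58 of the T-loop, often a methylated adenosine, was unchanged in all 831 placed reads of the 9 isoacceptors that could show it, which allows a share of up to 0.361% (3 counts of the total). Of 25 other isoacceptors with such reads, 6 showed a change and 19 did not. Gly-GCC had it in 7508 of 7920 reads (94.8%, 94.3 to 95.3). These 831 reads were therefore copied through base 58 without a change, as in most of the other tRNAs. Reads of up to 35 nt are listed only where they match a gene exactly, so they could not show a change.

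Tyr-GTA and Ile-TAT genes hold introns, all 9 Tyr-GTA genes and both Ile-TAT genes. The intron is cut out by the tRNA splicing endonuclease after the base that follows the anticodon, so base 38 is the first base of the second exon. Of the Ile-TAT 3′ reads 12 of 24 began exactly there. These were 1, 4 and 0 reads in the mutants, from control to recovery, and 0, 2 and 5 reads in the heterozygotes. Of the Tyr-GTA reads 3 began there, and 11 had 2 more bases, which are the same in the spliced tRNA and in the intron of 1 gene and cannot be told apart. Of 24 Tyr-GTA 5′ reads 6 ran past base 37, the end of the first exon, among them the sequence below with its base past the exon in capitals.
Tyr-GTA bases 1 to 38, 2 reads: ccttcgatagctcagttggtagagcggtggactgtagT
In Ile-TAT 1 read of the heterozygote recovery library held 16 bases of the intron, in capitals, followed by 27 bases of the second exon.
Ile-TAT with intron, 1 read: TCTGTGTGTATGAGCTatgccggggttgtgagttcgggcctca
It is listed at the other of the 2 genes than the spliced reads and differs from them by A58G, where a base of that gene and a changed base cannot be told apart. Spliced reads that span both exons would match no listed gene over their full length. They may be missing, so that the 5′ and 3′ yield of Tyr-GTA and Ile-TAT may be counted too low. They may also be listed shortened to 1 exon, so reads listed from base 38 need not have begun there. Neither was tested. Leu-CAA, another tRNA whose genes hold introns, stood next to Tyr-GTA in yield, at 0.776 reads per copy.

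Yields varied among the tRNAs that share a modification, and a link between modification and yield was not tested. Asn-GTT and Tyr-GTA belong with His-GTG and Asp-GTC to the tRNAs whose first anticodon base can be exchanged for queuosine; His-GTG gave 9.66 reads per copy and Asp-GTC 23.2, 10th and 7th of 40, and both had more 5′ than 3′ reads. Of the 8 tRNAs with inosine at base 34, Ile-AAT and Thr-AGT stood next to Arg-ACG and Ala-AGC. The group ran from 6.27 for the pair Pro-AGG and Pro-CGG, which share reads, to 0.264 for Val-AAC. Between these, the pair Ser-AGA and Ser-CGA gave 3.46 and Leu-AAG 0.506, 16th and 32nd of 40. Among the Dnmt2 substrates, Gly-GCC gave 357.5 reads per copy and Val-AAC 0.264, 1st and 36th.

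Between genotypes, the 9 isoacceptors together took 0.682%, 0.392% and 0.685% of listed reads in mutant control, heat shock and recovery, against 0.978%, 0.842% and 1.57% in the heterozygotes. The mutant value was the lower in each condition and the 95% Wilson intervals of the 2 genotypes did not overlap in any of the 3. Scaled for composition by the TMM method, the log2 ratio of mutant over heterozygote was -0.20 (95% interval -0.47 to 0.08) in control, -0.997 (-1.28 to -0.72) in heat shock and -0.72 (-1.26 to -0.22) in recovery. Scaled by the total of listed reads, the control ratio was -0.52. The intervals cover counting error only, with 1 library on each side.

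Ile-AAT and Thr-AGT had lower ratios than Trp-CCA, Asn-GTT and Tyr-GTA in control and heat shock. Ile-AAT had 35, 17 and 8 reads in the mutants (control, heat shock, recovery) and 26, 98 and 87 in the heterozygotes. Its log2 ratio of mutant over heterozygote was -1.39 (-2.16 to -0.60) in control, -2.12 (-2.96 to -1.37) in heat shock and -0.48 (-1.74 to 0.56) in recovery. Thr-AGT had 54, 23 and 7 reads in the mutants and 30, 89 and 94 in the heterozygotes, with ratios of -0.97 (-1.64 to -0.27), -1.55 (-2.28 to -0.87) and -0.79 (-2.14 to 0.31). Both were lower in the mutant in 3 of 3 conditions. Neither passed the count filter of the fit across isoacceptors, and with no filter neither was called. With short reads corrected for A read as C, the mutant counts were 37, 18 and 9 for Ile-AAT and 59, 24 and 8 for Thr-AGT.

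In the fit over the 6 libraries with genotype and condition as additive terms (edgeR's quasi-likelihood test, Benjamini-Hochberg adjustment over 22 isoacceptors), only Asn-GTT and Trp-CCA of the 9 had enough reads to be tested. Neither was called between genotypes, where 6 of the 22 were (27.3%, with 13.6% higher and 13.6% lower in mutants), and 1 of the 2, Trp-CCA, had an unadjusted p under 0.05, as did 8 of all 22. Trp-CCA had 164, 44 and 5 reads in the mutants (control, heat shock, recovery) and 41, 120 and 120 in the heterozygotes. It had a log2 fold change of -0.66 ± 0.32 (SE, 3 libraries against 3, edgeR adjusted p = 0.113). The mutant was lower in heat shock and recovery and not in control. It was called with RLE scaling (edgeR adjusted p = 0.0148), with DESeq2 (adjusted p = 0.0479), and in edgeR fits without the mutant or the heterozygote control, at -1.37 and -1.32. Asn-GTT had 169, 24 and 9 reads in the mutants and 32, 43 and 79 in the heterozygotes, at 0.05 ± 0.33 (edgeR adjusted p = 0.892).

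**Figure D5:**
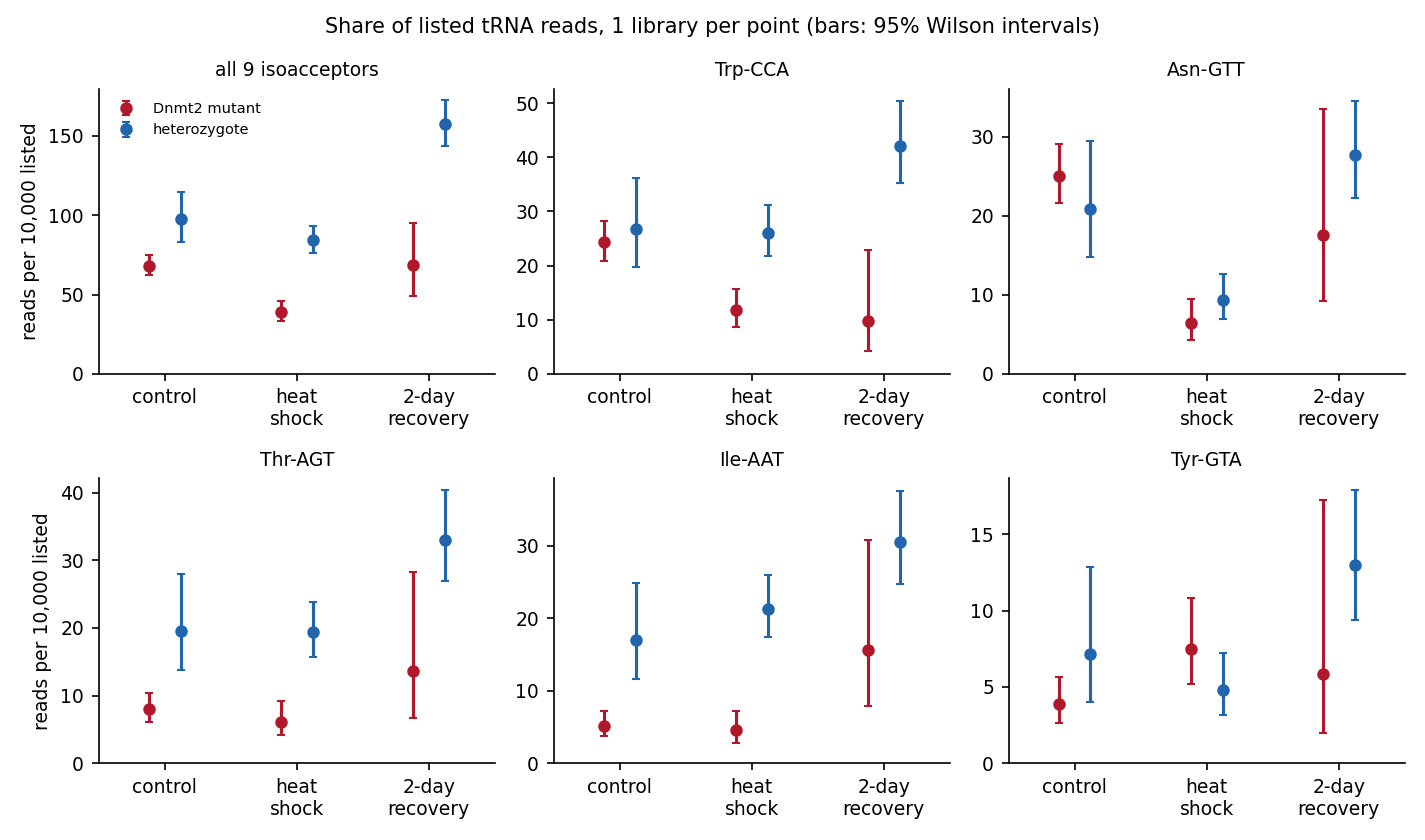
Reads per 10,000 listed tRNA reads in each library, for all 9 isoacceptors and the 5 most abundant, with mutants (red) left of heterozygotes (blue) and 95% Wilson intervals for counting error. Ile-AAT and Thr-AGT are lower in the mutant in each condition, and Asn-GTT is at its lowest after heat shock in both genotypes.

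After heat shock, Asn-GTT fell relative to control, and its share was lower in both genotypes. It took 6.41 reads per 10000 in the mutant after heat shock and 25.0 in the mutant control, and 9.34 after heat shock and 20.9 in control in the heterozygotes. The TMM-scaled log2 ratio of heat shock over control was -2.04 (-2.72 to -1.42) in mutants and -1.01 (-1.71 to -0.31) in heterozygotes. It was 1 of 7 isoacceptors called among 22 (31.8%, with 9.09% higher and 22.7% lower), at -1.55 ± 0.38 (SE, 2 libraries against 2, edgeR adjusted p = 0.00144), beside a median of -0.39 over all 22. The call was lost with DESeq2 (adjusted p = 0.403) and in the 3 fits without 1 library in which Asn-GTT kept enough reads, those without mutant heat shock, mutant recovery or heterozygote heat shock, at -1.91 to -1.15 (edgeR adjusted p = 0.0686 to 0.437). Between recovery and heat shock it stood at 1.02 ± 0.41 (edgeR adjusted p = 0.0892), where 1 of 22 isoacceptors was called, a lower one (4.55%). It was called in 2 of 7 other settings, with each distinct sequence counted once (edgeR adjusted p = 0.0377) and with A read as C corrected (edgeR adjusted p = 0.0154). Its adjusted p ran from 0.0154 to 0.488 over the 7, and it was called in 0 of 3 fits without 1 library.

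Trp-CCA was lower after heat shock in mutants and close to control in heterozygotes. In mutants it took 11.7 reads per 10000 after heat shock and 24.3 in control, a TMM-scaled log2 ratio of -1.12 (-1.63 to -0.63). In heterozygotes it took 26.1 after heat shock and 26.7 in control, a TMM-scaled log2 ratio of 0.11 (-0.41 to 0.66). The additive fit gave -0.57 ± 0.36 for heat shock (edgeR adjusted p = 0.197). With each distinct sequence counted once in place of each read, Trp-CCA had 873 reads in place of 494. That count does not take longer reads off the shortened forms in which they are also listed. Tyr-GTA had the other order. In mutants it took 7.47 reads per 10000 after heat shock and 3.85 in control (28 and 26 reads), a TMM-scaled log2 ratio of 0.89 (0.06 to 1.71). In heterozygotes it took 4.78 after heat shock and 7.17 in control (22 and 11 reads), a TMM-scaled log2 ratio of -0.44 (-1.55 to 0.75).

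For recovery against control, no isoacceptor of 22 was called by edgeR (0%) or by DESeq2, and 1 had an unadjusted p under 0.05. It was neither of Asn-GTT and Trp-CCA, which stood at -0.53 ± 0.40 and -0.61 ± 0.39 (edgeR adjusted p = 0.423 for both). The mutant recovery library held 35 reads of the 9 isoacceptors, so its ratios have the widest intervals. No single sequence of these tRNAs passed the count filter: the 39 sequences tested all belonged to other tRNAs, of which 15.4% were called between genotypes, 10.3% after heat shock and 0% in recovery.

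The genes of these tRNAs share most of their reads. RefSeq's table held 63 of the 67 genes under the listed names, and 33 of the 67 lie on arm 2R. Each of the 25 reads of Ile-TAT was listed at only 1 gene, as were 26 of the 127 reads of Tyr-GTA and 2 of the 19 reads of Thr-TGT. The reads of the other 6 isoacceptors were each listed at several genes, so the expression of single genes cannot be told apart.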

How the data were processed

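Per the file headers, the authors deposited raw read counts for each sequence at each tRNA gene. Bowtie and dm3 are named in the submitters' processing notes, and mismatch settings and trimming were not given in sources used here. Libraries were grouped by sample titles. The lists appear to hold a read at every gene it matches, shortened where a gene stops matching, so counts of longer sequences were taken off their shortened forms to count each read once. This rule was inferred from the lists; the simulated lists, which returned the drawn totals, used the same rule and do not check it. Reads were summed per isoacceptor and placed by the T-loop, the first base or the anticodon, over 99% of reads in each library. The test was edgeR's quasi-likelihood test (version 4.0.16, R 4.3.3, TMM scaling, additive genotype and condition, 2-sided, Benjamini-Hochberg adjustment, threshold 0.05). At least 3 libraries had to reach the CPM equal to 10 counts in the smallest library. Groups have 1 library each, so the spread, pooled over isoacceptors, includes any difference in response between genotypes, and p-values speak only of the spread among the 6 libraries, which may be technical. Ratios of library pairs have exact conditional binomial 95% intervals and shares have 95% Wilson intervals, which cover counting error only, since reads carry no molecular identifiers. Members and lists were chosen with earlier results of these data known. Every isoacceptor of the 6 amino acids is named, and of the others the neighbours in the order of reads per copy and those on the lists of modified or intron-bearing tRNAs. Gene names and exons were taken from RefSeq, whose build differs from dm3, so no coordinates are given. Alternatives were RLE and total count scaling, DESeq2 1.42.0, no count filter, other ways of counting reads and leaving out each library.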

Additional observations from a re-analysis of the deposited data

Results flagged for a closer look

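Several ratios between pairs of libraries had opposite signs in the 2 genotypes or in the conditions, with at least 1 of them clear of 0 by counting error. With 1 library per group, none of these differences was tested, and a cause was not tested. Values are log2 ratios of TMM-scaled counts with 95% intervals.

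For Trp-CCA the ratio of heat shock over control was -1.12 (-1.63 to -0.63) in mutants and 0.11 (-0.41 to 0.66) in heterozygotes. The ratio of recovery over control was -1.70 (-3.35 to -0.45) in mutants, on 5 reads, and 0.11 in heterozygotes. Put as mutant over heterozygote, Trp-CCA stood at -1.04 in heat shock and -1.63 in recovery, against 0.18 (-0.32 to 0.72) in control.

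For Asn-GTT the ratio of mutant over heterozygote was 0.59 (0.03 to 1.18) in control, while heat shock gave -0.44 (-1.22 to 0.31) and recovery -0.17. For Tyr-GTA the ratio of heat shock over control was 0.89 (0.06 to 1.71) in mutants and -0.44 (-1.55 to 0.75) in heterozygotes. For Ile-AAT the ratio of recovery over heat shock was 1.47 (0.04 to 2.76) in mutants, on 8 reads after recovery, and -0.17 (-0.61 to 0.26) in heterozygotes. For Phe-GAA the ratio of heat shock over control was 0.78 (-3.01 to 4.56) in mutants, on 2 reads each, and -1.93 (-3.92 to -0.05) in heterozygotes.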

How the results depend on the processing

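Libraries were paired only by condition, in the genotype fit and in the sign-flip test of Asn-GTT. The labels give no replicate numbers, and each group held 1 library, so no other pairing was possible. Between genotypes 6 isoacceptors were called, 3 with no count filter, 2 without reads of 51 nt, 1 without both heat shock libraries, and 1 to 8 without 1 library (1 without mutant heat shock, 2 without heterozygote heat shock). After heat shock 7 were called, 3 with total count scaling and 1 to 9 without 1 library (1 without mutant control, mutant heat shock or heterozygote heat shock, 3 without mutant recovery). In recovery 0 were called, and 0 to 1 without 1 library (1 without mutant recovery). Between recovery and heat shock 1 was called, 0 with total count scaling, 4 with DESeq2, 5 with distinct sequences counted once, 3 without reads of 51 nt, 5 with A read as C corrected, and 0 to 3 without 1 library. Of single sequences 6 were called between genotypes, 11 with total count scaling, 10 with no filter and 0 to 4 without 1 library. After heat shock 4 were called, 2 with no filter and 0 to 4 without 1 library. Asn-GTT after heat shock was called in 6 of 7 other settings (not with DESeq2), with values between -1.60 and -1.08 in the 7, and in 0 of 3 fits without 1 library; in recovery against heat shock it was called in 2 of 7 and 0 of 3. RLE scaling moved the median of all isoacceptors after heat shock to 0.05, beside -0.39 with TMM. Trp-CCA between genotypes was called in 2 of 8 other settings. The summed share averaged 0.859% of reads and 1.01% with distinct sequences counted once. The control ratio of all members was -0.52 with total count scaling, added after the data were seen. The internal share of Asn-GTT averaged 62.5% over libraries and 6.33% with ends within 2 bases counted as ends (22.2%, 2 of 9 reads, in mutant recovery), and the 3′ share of all members was 46.4% and 89.2%. Apart from what each setting counts, the causes of these changes were not tested. Fewer than 30 reads in all limit Ile-TAT, Thr-TGT and Thr-CGT to description.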
